A study of Mus musculus with 16 samples.

Results

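Opposite-strand genes are genes named after a neighbour on the other DNA strand, the neighbour's symbol being followed by "os" and sometimes a digit, as in Junos for Jun. In the RNA-seq table of olfactory bulb microglia, 301 of the 57010 listed genes carried such a name, and 37 of them had 0 counts in every library. Genes with 5 or more counts in 8 or more of the 16 libraries were kept, which held for 76 of the 301 and for 18227 genes of the whole table. Cdr1os, Oip5os1 and Dlx6os1 were set aside, which left 73 opposite-strand genes. They belong to 71 partner genes, since Arhgap27 has 3 of them, and 68 partners passed the same threshold, so that 70 pairs had counts for both genes. The mice were WT (C57BL/6J) or APP-NL-G-F, both sexes, all aged 2 months, with 4 libraries per genotype and sex and thus 8 per genotype. APP-NL-G-F mice, labelled KI, have a humanised amyloid region in their own App gene that bears the NL (Swedish), G (Arctic) and F (Iberian) changes, on the same C57BL/6J background and in all cells that express App, microglia or not. Cells were isolated with CD11b beads, which also bind other myeloid cells of the tissue. The question put to each pair was whether the opposite-strand gene differed between the genotypes, and whether its level followed that of its partner over the libraries.

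Transcripts from the strand opposite to a gene are widespread in mammalian genomes, and most are long noncoding RNAs, which are transcribed and often spliced but encode no known protein. Some start from the same promoter region as the partner and run away from it, others start inside the partner or run into its end. Single opposite-strand RNAs have been found to raise, lower or leave untouched the partner gene, and an opposite-strand transcript at the Zeb2 locus is known for its influence on Zeb2 splicing.

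Between 9052932 and 18117286 counts were assigned per library (median 11926833), and the 73 genes together held 0.0267% to 0.0327% of them. Levels are given as CPM, counts scaled by the TMM-corrected library size to a common depth, and 3 counts, the limit that a count of 0 allows, correspond to 0.169 to 0.347 CPM depending on the library. That limit covers counting error only. The 10 homeostatic microglia markers summed to 19971 to 23626 CPM in the WT and 20009 to 23297 CPM in the APP-NL-G-F libraries. Transcripts of other cells were present as well: the 10 neuron markers summed to 303.7 to 404 CPM in the WT and 372 to 542 CPM in the APP-NL-G-F libraries. The labels number the libraries of a group as replicates without saying which mouse or mice each holds, so the p-values measure the spread between these libraries. In bulk samples, fewer cells of a type and less RNA per cell cannot be told apart.

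The name "long noncoding" did not hold for every member. In the gencode M39 annotation (GRCm39), 64 of the 73 are long noncoding RNAs and 6 are protein-coding: Brd3os, Cdiptos, Wdr83os, Slc7a6os, Pigbos1 and Cebpzos. Abhd11os is a transcribed pseudogene, Dlx6os2 is a transcript awaiting experimental evidence, and Tmem147os was not matched. The 72 matched members all lie on the strand opposite to the partner. In 27 pairs the start sites of the 2 genes lie within 1000 bases (divergent), in 18 the member lies inside the partner, in 8 the genes diverge and overlap with starts farther apart, in 10 they converge and overlap, in 6 the partner lies inside the member, and in 3 they converge without overlap. Exon bases of both strands coincide in 61 pairs and in none of the other 11. The median member shares 10.2% of its exon bases with its partner and has 2917.5 exon bases.

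RefSeq (GRCm38.p6) provided the 250 bases before the start for 46 of the 73 members and 54 of the 71 partners. Of 37 pairs with both on opposite strands, 19 had start sites within 1000 bases and 11 had windows that share bases. The closest starts were those of Pigbos1 and Pigb, 19 bases apart, and those of Junos and Jun lay 95 bases apart at the nearest of 7 annotated Junos starts. The windows printed here are those of the pairs whose member fell in APP-NL-G-F mice and correlated with its partner by Pearson r over the libraries, described further on. They are the Jun window (chr4:95052223-95052472, minus strand), which also holds the nearest Junos start at its position 156, the Il1bos window (chr2:129369652-129369901, plus strand) and the Ptgs2os2 window (chr1:150164949-150165198, minus strand), each 5′ to 3′ on the strand of the named gene, with capitals for matches to any of the motifs listed below on either strand.
Jun: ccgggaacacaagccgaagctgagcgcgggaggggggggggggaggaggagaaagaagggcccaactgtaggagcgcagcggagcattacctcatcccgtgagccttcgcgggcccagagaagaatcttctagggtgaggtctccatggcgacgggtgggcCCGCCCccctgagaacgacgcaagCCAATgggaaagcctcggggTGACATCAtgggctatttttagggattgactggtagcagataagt
Il1bos: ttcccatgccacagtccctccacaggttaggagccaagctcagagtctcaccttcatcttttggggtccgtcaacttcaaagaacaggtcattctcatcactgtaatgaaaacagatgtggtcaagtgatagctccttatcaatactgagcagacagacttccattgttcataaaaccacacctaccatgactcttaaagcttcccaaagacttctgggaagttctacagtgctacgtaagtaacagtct
Ptgs2os2: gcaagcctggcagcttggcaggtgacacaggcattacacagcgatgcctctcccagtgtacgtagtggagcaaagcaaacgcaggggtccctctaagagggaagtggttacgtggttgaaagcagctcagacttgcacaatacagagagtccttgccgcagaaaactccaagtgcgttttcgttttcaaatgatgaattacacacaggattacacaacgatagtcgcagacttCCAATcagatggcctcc
The 6 motifs were searched on both strands, and none contains another. The Jun window holds TGACATCA, the variant cyclic AMP response element known from the Jun promoter, at position 206, a GC box (GGGCGG) at 162 and a CCAAT box at 186. Of all 32851 RefSeq windows, 2.93% hold TGACATCA, 32.7% GGGCGG and 33.85% CCAAT. The Ptgs2os2 window holds CCAAT at 234, and the Il1bos window holds none of the 6. The Il1bos window precedes a RefSeq start 1237 bases from that of Il1b, while the gencode start of Il1bos lies 10819 bases from that of Il1b. The AP-1 site TGACTCA occurs in 4.46% of all windows, 4.41% of the 68 member windows and 2.74% of the 73 partner windows, the full cyclic AMP response element TGACGTCA in 1.55%, 1.47% and 5.48%, and the TATA box TATAAA in 12.4%, 5.88% and 5.48%. The GC content of member windows had a median of 54.8%, against 60.8% for partners and 52.4% for all windows. A match describes these letters and is not evidence of binding.

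Opposite-strand genes were mostly expressed far below their partners. The members' mean level ranged from 0.361 to 42.3 CPM with a median of 1.32, against 8.90 over all tested genes, and 21 members averaged under 10 counts per library, 43 between 10 and 100 and 9 above 100. All 16 libraries had at least 5 counts for 44 members. Just inside the threshold stood Dhrs13os, with 0 to 8 counts, and Abhd11os, with 2 to 12, both at 5 counts in 8 libraries. Just outside stood Rab26os, with 0 to 10 counts, and Arf4os, with 0 to 14, both in 6 libraries. Per kb of exons, the partner had the higher mean level in 60 of the 69 pairs with lengths, by a median factor of 9.67, and the member in 9. Member levels per kb ran from 0.0586 to 19.2 CPM.

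**Figure D1:**
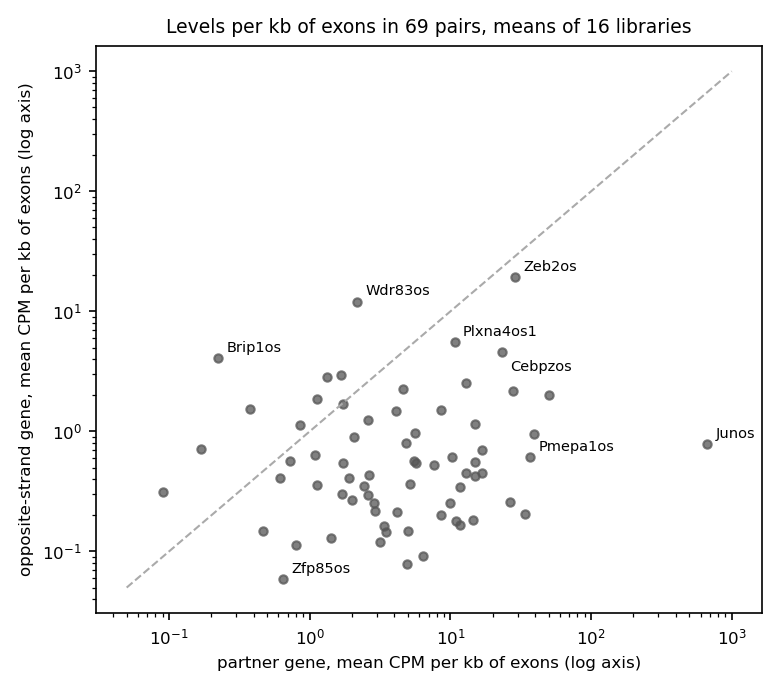
Mean level of each opposite-strand gene (y axis) against that of its partner (x axis) in CPM per kb of exons, both on log axes, 1 point per pair, with a dashed line where the 2 are equal. Of 69 points 60 lie below the line, Junos the farthest to the right with Jun at 671 CPM per kb, and Brip1os and Wdr83os lie clearly above it.

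Zeb2os, from inside the gene for the zinc finger transcription factor Zeb2, had the highest level per kb of the members, 19.2 CPM, against 28.8 CPM for Zeb2. The protein-coding Wdr83os, whose product is a chaperone factor for membrane proteins of the endoplasmic reticulum, came next with 12.1 CPM per kb and exceeded its partner Wdr83 at 2.17 CPM per kb, from start sites 6 bases apart. Plxna4os1, inside the semaphorin receptor gene Plxna4, reached 5.53 CPM per kb (Plxna4, 10.7 CPM per kb), and Cebpzos, which encodes a mitochondrial protein, 4.57 (Cebpz, 23.1). Brip1os was the reverse of the usual order: it reached 4.10 CPM per kb while Brip1, the gene of a DNA repair helicase, stood at 0.222. Its mean was 40.1 ± 1.81 CPM in the WT and 40.6 ± 2.37 CPM in the APP-NL-G-F libraries (SD, n = 8), a difference within the spread between libraries. Cebpzos, at 33.3 ± 1.93 and 32.8 ± 3.02 CPM, and Plxna4os1, at 11.4 ± 1.49 and 11.3 ± 0.973 CPM, likewise differed by less than 1 SD.

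Of the 73 opposite-strand genes, 12 differed between the genotypes (edgeR quasi-likelihood test with sex as a term, FDR below 0.1 and absolute log2 fold change above 0.5). Lower in APP-NL-G-F were Junos, Il1bos, Ptgs2os2, Lrrc75aos2, Frmd8os, Rab11fip4os1, Phtf1os, Rsf1os2 and Bloc1s6os, and higher were Kcnd3os, Runx2os1 and Atcayos. These 9 lower and 3 higher calls make up 16.4% of the members, against 8.64% of all 18227 tested genes (4.33% higher and 4.3% lower), 3.96% of protein-coding genes and 28% of all 2007 tested long noncoding RNAs. All 12 are long noncoding RNAs, so that 12 of the 64 long noncoding members (18.75%) were called. The median log2 fold change of the 73 members was -0.02, with 32 above 0 and 41 below, and at an unadjusted p below 0.05 stood 22 of 73, against 24.1% of all genes. With the FDR alone, 17 members passed against 14.8% of all genes. With the stricter FDR below 0.05 and the same fold threshold, 7 members passed against 6.07% of all genes. Among the 73, 6 had under 4 libraries at 5 counts in a genotype, 2 in the WT and 4 in APP-NL-G-F, and passed the count threshold mostly through the other genotype. Among the called these are Atcayos, Ptgs2os2 and Bloc1s6os.

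**Figure D2:**
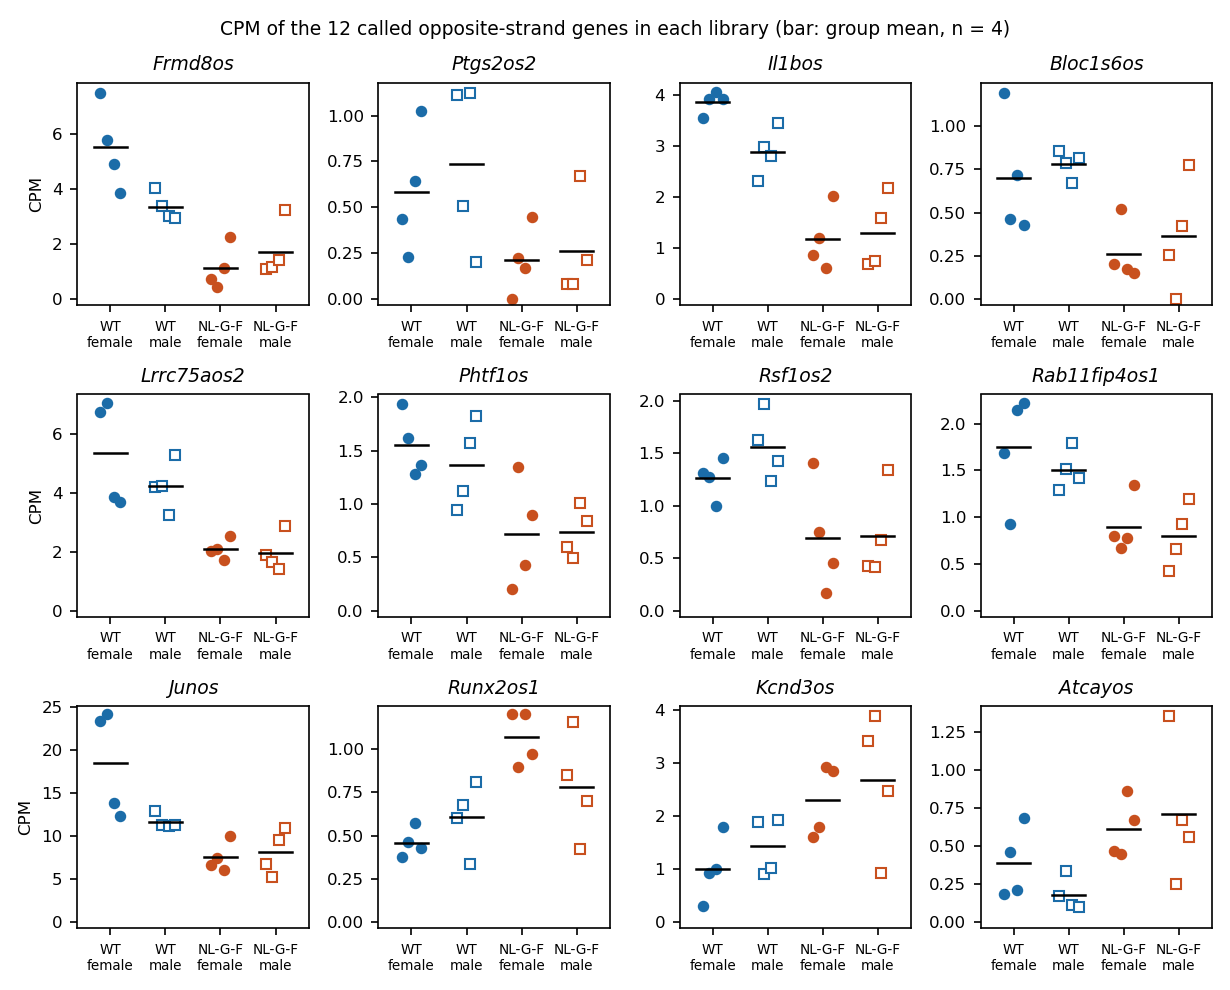
CPM of the 12 called opposite-strand genes in each library, by genotype and sex (NL-G-F stands for APP-NL-G-F), with 1 point per library and a bar at the mean of 4. The APP-NL-G-F points of Junos, Il1bos and Lrrc75aos2 all lie below the WT points, while in the other 9 genes the genotypes overlap.

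Junos, Il1bos and Ptgs2os2, all lower, belong to inducible genes. Jun encodes a subunit of the AP-1 transcription factor and is an immediate early gene. Junos (chr4:94927957-95056126, plus strand, GRCm39) spanned 11.2, 12.6 and 24.2 CPM in WT (lowest, median, highest) and 5.29, 7.09 and 10.9 CPM in the APP-NL-G-F libraries. The genotypes did not overlap, and the highest values were those of WT female replicates 1 and 2. The log2 fold change was -0.91 ± 0.19 (SE), with an FDR of 0.00505. Jun itself, at 1988, 2684 and 3986 CPM in the WT and 1084, 1330 and 2022 CPM in the APP-NL-G-F libraries, fell by nearly the same amount on the log2 scale, -0.85 ± 0.16 (FDR = 0.00274), and this was the single pair in which both genes were called. The log2 ratio of Junos to Jun, -7.53 ± 0.25 in the WT and -7.55 ± 0.08 in the APP-NL-G-F libraries (SD, n = 8), differed by less than the spread between libraries (exact permutation of genotype within sex, adjusted p = 0.92). The mean of the whole Junos gene, 11.4 CPM, was 3.23% of the 354 CPM expected for Jun in the 528 exon bases they share. That expectation takes the coverage of Jun as even, and reads in the shared bases alone were not counted. The part of Jun reads counted on the wrong strand in Junos was not tested.

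Il1b encodes the cytokine interleukin-1 beta, and Il1bos (chr2:129202240-129218083, plus strand) spans it on the other strand. Il1bos spanned 2.31, 3.51 and 4.07 CPM in the WT and 0.603, 1.03 and 2.18 CPM in the APP-NL-G-F libraries. All 8 APP-NL-G-F libraries lay below all 8 WT libraries. Il1bos fell by 1.42 ± 0.24 on the log2 scale (FDR = 0.00136). Il1b spanned 14.3, 24.9 and 58.8 CPM in the WT and 10.97, 20.5 and 56.6 CPM in the APP-NL-G-F libraries, ranges that overlap almost completely (log2 fold change -0.28 ± 0.34, FDR = 0.69). Ptgs2 encodes cyclooxygenase-2, the inducible enzyme of prostaglandin synthesis. Ptgs2os2 (chr1:150034388-150040866, minus strand) lies beyond the end of Ptgs2, at 149983978, and shares no base with it. The start sites of the 2 genes lie 65248 bases apart. Ptgs2os2 spanned 0.203, 0.574 and 1.12 CPM in the WT and 0, 0.192 and 0.672 CPM in the APP-NL-G-F libraries. It had 0 counts in APP-NL-G-F female replicate 1, and 4 of the 8 APP-NL-G-F libraries lay within the WT range. Its log2 fold change was -1.45 ± 0.49 (FDR = 0.07) beside -0.23 ± 0.28 for Ptgs2 (FDR = 0.685), and the call was lost without any of 6 APP-NL-G-F libraries, with an FDR of up to 0.143. Ptgs2os2 had 5 counts in exactly 8 libraries, so that it fell under the count threshold and was not tested when any of those 8 was left out, namely APP-NL-G-F female replicate 4, APP-NL-G-F male replicate 3 and 6 WT libraries. The call was kept without WT female replicate 2 or WT male replicate 4, the other 2 libraries.

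The other 6 lower genes have partners that did not pass the test. Lrrc75aos2, inside the leucine-rich repeat gene Lrrc75a (chr11:62496556-62498574, plus strand), spanned 3.25, 4.21 and 7.05 CPM in the WT and 1.43, 1.94 and 2.88 CPM in the APP-NL-G-F libraries, with no overlap. It had the smallest FDR of the members, 0.000605, at a log2 fold change of -1.22 ± 0.18, while Lrrc75a stood at -0.17 ± 0.08 (FDR = 0.238). Frmd8os converges on Frmd8, whose product binds iRhom proteins and stabilises the sheddase complex that releases TNF. Frmd8os (chr19:5895561-5901416, plus strand) spanned 2.95, 3.94 and 7.51 CPM in the WT and 0.448, 1.14 and 3.23 CPM in the APP-NL-G-F libraries. APP-NL-G-F male replicate 4 alone reached the WT range. The log2 fold change, -1.60 ± 0.31 (FDR = 0.00346), was the largest decrease among the members, and Frmd8 stood at -0.05 ± 0.06 (FDR = 0.691).

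Rab11fip4os1 (chr11:79497905-79514049, minus strand) lies in introns of Rab11fip4, the gene of a Rab11 effector in recycling endosomes. It spanned 0.925, 1.60 and 2.22 CPM in the WT and 0.425, 0.789 and 1.35 CPM in the APP-NL-G-F libraries. In 6 APP-NL-G-F libraries it lay below every WT library, and the log2 fold changes of the pair pointed apart, -0.93 ± 0.23 for Rab11fip4os1 (FDR = 0.0152) and 0.22 ± 0.08 for Rab11fip4 (FDR = 0.105). Phtf1os (chr3:103871852-103875960, minus strand), divergent from Phtf1, spanned 0.942, 1.47 and 1.94 CPM in the WT and 0.201, 0.719 and 1.34 CPM in the APP-NL-G-F libraries, and fell by 0.98 ± 0.28 on the log2 scale (FDR = 0.0346) beside -0.08 ± 0.05 for Phtf1.

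Rsf1os2 (chr7:97299216-97346306, minus strand) converges on Rsf1, a chromatin remodelling factor gene, and Bloc1s6os (chr2:122554597-122607515, minus strand) spans Bloc1s6, which encodes a subunit of a complex for lysosome-related organelles. Rsf1os2 spanned 0.999, 1.37 and 1.97 CPM in the WT and 0.172, 0.560 and 1.40 CPM in the APP-NL-G-F libraries (log2 fold change -0.96 ± 0.30, FDR = 0.0526). Bloc1s6os spanned 0.427, 0.751 and 1.19 CPM in the WT and 0, 0.228 and 0.773 CPM in the APP-NL-G-F libraries (-1.24 ± 0.39, FDR = 0.0542). For each of these 2 genes, 6 APP-NL-G-F libraries lay below every WT library, and Bloc1s6os had 0 counts in APP-NL-G-F male replicate 2. Rsf1 and Bloc1s6 stood at -0.01 ± 0.04 and 0.06 ± 0.05. The Rsf1os2 call was lost without WT male replicate 2 or without replicate 1 or 2 of the APP-NL-G-F males, with an FDR of up to 0.12. The Bloc1s6os call was lost without WT female replicate 1, replicate 1 of the APP-NL-G-F males or replicate 3 or 4 of the APP-NL-G-F females, with an FDR of up to 0.136.

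Immediate early genes moved with several of these. Of 10 such markers, 9 were called lower and none higher, and their summed level ran from 5608 to 13487 CPM in the WT and from 2595 to 5766 CPM in the APP-NL-G-F libraries. None was at 0. Over the 16 libraries, the mean log2 level of this list correlated with Il1bos (r = 0.95, rho = 0.93, 0.93 for r without the 2 farthest libraries, 0.93 within the 4 groups), Junos (0.94, 0.92, 0.92 and 0.78), Frmd8os (0.88, 0.86, 0.89 and 0.65), Lrrc75aos2 (0.82, 0.83, 0.79 and 0.41), Rab11fip4os1 (0.80, 0.81, 0.71 and 0.61), Phtf1os (0.79, 0.82, 0.76 and 0.62) and Zeb2os (0.76, 0.82, 0.64 and 0.56). Permutation p-values adjusted over 1794 relations of 138 genes with 13 marker lists were at most 0.0284 for these 7. For this list and those below, libraries were exchanged across genotypes, so a genotype difference shared by list and gene enters r and its p-value. The values within the 4 groups leave that difference out. Jun is itself on the list, so its own value is not a comparison, and Junos was set against a list that includes its partner. In all, 12 members passed at an adjusted p below 0.1, 9 positively and 3 negatively, of 70 members of pairs, beside 10 of the 68 partners, 7 positively and 3 negatively. The members with a negative correlation included Runx2os1 (r = -0.79, adjusted p = 0.0226) and Kcnd3os (r = -0.70, adjusted p = 0.0747). The part of the immediate early genes in these differences was not tested. Oligodendrocyte markers moved with some members as well: the 6 markers summed to 231 to 427 CPM in the WT and 282 to 412 CPM in the APP-NL-G-F libraries, 1 of 6 was called higher and none was at 0. Their mean log2 level correlated negatively with 4 members over the same 1794 relations, Ptgs2os2 (r = -0.76, rho = -0.71, -0.66 without the 2 farthest libraries, -0.65 within the groups, permutation adjusted p = 0.0426), Epb41l4aos (-0.73, -0.69, -0.65 and -0.53, adjusted p = 0.0565), Rab11fip4os1 (-0.71, -0.70, -0.61 and -0.60, adjusted p = 0.0813) and Zeb2os (-0.70, -0.71, -0.58 and -0.44, adjusted p = 0.0718), while by rho none of the 4 passed (adjusted p = 0.103 to 0.12). The part of oligodendrocyte RNA was not tested.

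Kcnd3os, Runx2os1 and Atcayos rose. Kcnd3 encodes a voltage-gated potassium channel of neurons and heart. Kcnd3os (chr3:105348899-105360900, minus strand) spanned 0.313, 1.004 and 1.93 CPM in the WT and 0.923, 2.65 and 3.89 CPM in the APP-NL-G-F libraries, and 5 of the 8 APP-NL-G-F libraries exceeded every WT library while male replicate 3 was among the lowest. Its log2 fold change was 1.05 ± 0.31 (FDR = 0.0409), and Kcnd3 stood at 0.31 ± 0.13 (FDR = 0.15). Runx2os1 (chr17:45045606-45048508, plus strand), inside the gene of the osteoblast transcription factor Runx2, spanned 0.336, 0.517 and 0.813 CPM in the WT and 0.420, 0.934 and 1.21 CPM in the APP-NL-G-F libraries, 6 of which exceeded every WT library. It rose by 0.78 ± 0.25 (FDR = 0.0565), beside 0.35 ± 0.17 for Runx2 (FDR = 0.216). Atcayos (chr10:81030253-81046711, plus strand) converges on Atcay, the gene of the neuronal protein caytaxin, and spanned 0.102, 0.201 and 0.684 CPM in the WT and 0.248, 0.617 and 1.36 CPM in the APP-NL-G-F libraries. The genotypes overlapped, but all 8 APP-NL-G-F values lay above the WT median, and the log2 fold change was 1.18 ± 0.39 (FDR = 0.0627) beside 0.41 ± 0.11 for Atcay (FDR = 0.0227, below the fold threshold). The WT libraries had 1 to 8 counts of Atcayos, and their median lay within the 0.169 to 0.347 CPM of 3 counts.

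The call of Runx2os1 was lost without WT female replicate 1, replicate 2 of the APP-NL-G-F males or replicate 3 of the APP-NL-G-F females, with an FDR of up to 0.126, and with no filter on counts, at an FDR of 0.154. That of Atcayos was lost without WT female replicate 1 or 3, replicate 3 of the APP-NL-G-F females or replicate 1 of the APP-NL-G-F males, with an FDR of up to 0.134. Olfactory bulb inhibitory neuron markers moved with 1 of the 3 higher genes, Kcnd3os. The 10 markers summed to 244.8 to 381.8 CPM in the WT and 327.9 to 522 CPM in the APP-NL-G-F libraries, 1 of 10 was called higher and none was at 0. Their mean log2 level correlated with Kcnd3os (r = 0.92, rho = 0.95, 0.93 without the 2 farthest libraries, 0.86 within the groups), and with the partners Kcnd3 (0.93, 0.94, 0.92 and 0.94) and Atcay (0.96, 0.95, 0.93 and 0.92), each at an adjusted permutation p of 0.0012. Runx2os1 (r = 0.66, rho = 0.71, adjusted p = 0.126) and Atcayos itself (r = 0.32, rho = 0.33, adjusted p = 0.669) did not pass. Over the same 1794 relations, the 10 neuron markers passed with 1 member and 1 partner, both negatively. The 6 projection neuron markers passed with 1 member, positively, and 0 partners. The part of neuronal RNA in these differences was not tested.

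Of the 68 tested partners, 3 were called (4.41%), namely Jun, Rbm3 and Dlx6, against the same 8.64% of all genes and 3.96% of protein-coding genes. Rbm3 encodes an RNA-binding protein induced by cold. It spanned 38.8, 50.4 and 70.7 CPM in the WT and 26.9, 36.0 and 44.0 CPM in the APP-NL-G-F libraries, with APP-NL-G-F male replicate 3 alone reaching the WT range, and fell by 0.54 ± 0.09 on the log2 scale (FDR = 0.00154). Rbm3os, which starts 72 bases away, stood at -0.38 ± 0.20 (FDR = 0.268). Dlx6 encodes a homeobox factor of inhibitory forebrain neurons and spanned 2.00, 2.45 and 3.96 CPM in the WT and 2.52, 4.48 and 6.04 CPM in the APP-NL-G-F libraries, a rise of 0.75 ± 0.18 (FDR = 0.0132), and Dlx6os2 inside it stood at 0.55 ± 0.24 (FDR = 0.169). Rbm3 dropped under the fold threshold, at a log2 fold change of down to -0.47, without WT female replicate 1 or without replicate 1 of the APP-NL-G-F females or of the APP-NL-G-F males. The number of called partners was 5 without WT female replicate 4 and 6 without APP-NL-G-F male replicate 3.

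**Figure D3:**
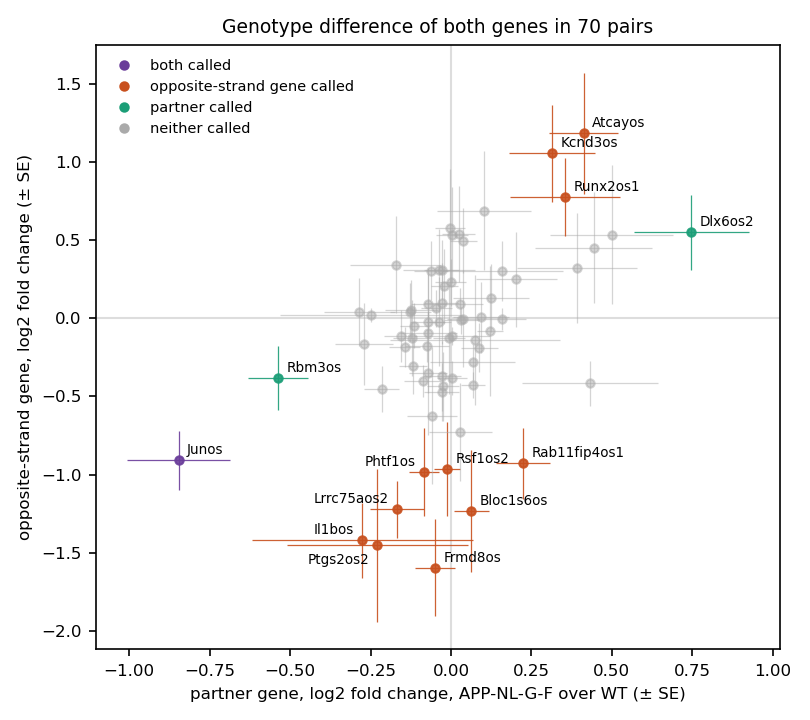
Log2 fold change of APP-NL-G-F over WT for the partner (x axis) and the opposite-strand gene (y axis) of 70 pairs, 1 point per pair with SE bars, coloured by which gene was called. Junos is the single pair called in both genes, and the partners of the other 8 lower members lie between -0.28 and 0.22.

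Zeb2os, Bach2os, Rab10os, Zbtb11os1 and Epb41l4aos passed the FDR but not the fold threshold, all with lower levels in the APP-NL-G-F libraries. Zeb2os (chr2:45000501-45004099, plus strand) spanned 41.5, 46.3 and 64.0 CPM in the WT and 30.7, 37.2 and 40.0 CPM in the APP-NL-G-F libraries, with no overlap between the genotypes, and fell by 0.43 ± 0.08 on the log2 scale (FDR = 0.0034). Zeb2, at 596, 639 and 691 CPM in the WT and 636, 680.2 and 698 CPM in the APP-NL-G-F libraries, stood at 0.07 ± 0.04 (FDR = 0.287). With Junos, Il1bos and Lrrc75aos2, Zeb2os made 4 of 73 members without overlap of 8 against 8 libraries, against 1.29% of all tested genes and 0 of the 68 partners.

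All 12 called members had the same sign of the log2 fold change in females and males, as did 49 of the 73 members. The 12 were called in a fit to these same libraries of both sexes, so their shared sign is not separate evidence. Within females, 8 members (11%) were called, against 7.15% of all genes and 19.1% of all tested long noncoding RNAs. They were Frmd8os, Il1bos, Junos, Lrrc75aos2, Rab10os and Rab11fip4os1, lower, and Mkln1os and Runx2os1, higher, 6 of them among the 12. The count in females was 4 without WT female replicate 1 and 5 without APP-NL-G-F female replicate 3. Within males, edgeR called 0 members, with a smallest FDR of 0.116 for Lrrc75aos2, against 0.252% of all genes. At an unadjusted p below 0.05 in males stood 11 members, against 11.7% of all genes. Leaving out replicate 3 or 4 of the APP-NL-G-F males made 3 calls in males. The difference between the sexes, tested as an interaction, was called for 0 members against 0.0274% of all genes, with 4 members at an unadjusted p below 0.05 against 5.94%. Among the called members the smallest interaction p-values were those of Frmd8os, with log2 fold changes of -2.28 ± 0.39 in females and -0.93 ± 0.38 in males (edgeR interaction FDR = 0.73), and Junos, at -1.28 ± 0.23 and -0.52 ± 0.24 (edgeR interaction FDR = 0.772).

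Over the 16 libraries, 12 of the 70 pairs were correlated, all positively (Pearson r of log2 CPM, two-sided permutation test with 100000 resamples, adjusted p below 0.1). The adjustment covered 81 pairs, made up of these 70, 2 os pairs set aside by the choice of members and 9 pairs named by "as", "ot" or "it", and 19.8% of the 81 passed. The median r was 0.13 with a range from -0.57 to 0.96, 51 of 70 lay above 0, and 14 had an unadjusted p below 0.05. Any tested gene set against any of these partners reached the lowest r of the correlated pairs, 0.58, in 5.03% of combinations. Ranked among all tested genes by r with the partner, the members stood at a median percentile of 66.3, and Junos (99.7) and Pmepa1os (99.6) were in the top 1%. Kcnd3os stood at 97.1, Grin1os at 94.7, Dlx6os2 at 93.4 and Zfhx2os at 91.0. The count was 7 without APP-NL-G-F female replicate 1 or without APP-NL-G-F male replicate 1, 1 in the 8 WT libraries and 5 in the 8 APP-NL-G-F libraries.

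**Figure D4:**
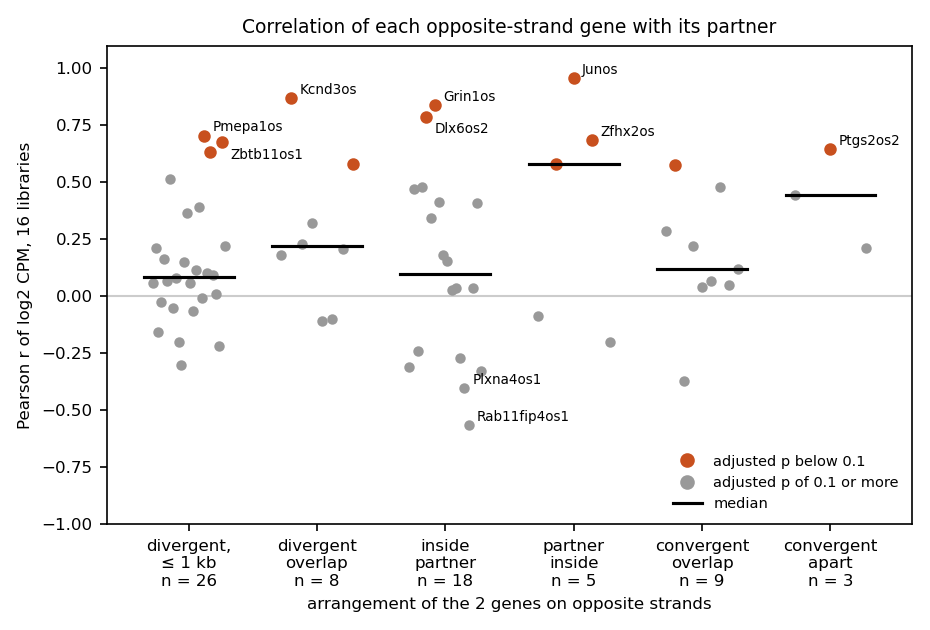
Pearson r of log2 CPM between each opposite-strand gene and its partner over 16 libraries (y axis) by the arrangement of the genes (x axis), 1 point per pair, with medians as bars. The 5 pairs with the partner inside the member have the highest median, 0.58, and the 26 divergent pairs the lowest, 0.09. Junos is among the 5 by its gencode start, 1018 bases from that of Jun.

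Divergent pairs, with starts within 1000 bases, had a median r of 0.09, and 3 of 26 were correlated. The median was 0.10 for 18 members inside the partner with 2 correlated, 0.22 for 8 overlapping divergent pairs with 2, 0.22 for 12 convergent pairs with 2, and 0.58 for 5 pairs with the partner inside the member with 3 correlated. Junos is among these last 5 pairs because its gencode start lies 1018 bases from that of Jun, just past the limit of 1000. By its nearest RefSeq start, 95 bases from that of Jun, it would count as divergent. These are descriptions of small classes and were not tested against each other.

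Junos and Jun had the highest correlation, r = 0.96 and rho = 0.96 (adjusted p = 0.00027), which was 0.94 without the 2 libraries farthest from the Jun median and 0.86 within the 4 groups. Kcnd3os followed Kcnd3 with r = 0.87 and rho = 0.93 (adjusted p = 0.000324), 0.85 without the 2 farthest libraries and 0.83 within the groups. Grin1os, inside the gene of the obligatory NMDA receptor subunit, followed Grin1 with r = 0.84 and rho = 0.78 (adjusted p = 0.000675, 0.61 and 0.79), at 0.116 to 0.973 CPM against 56.4 to 162 CPM for Grin1. The CPM of the whole Junos and Grin1os genes came to 3.23% and 3.597% of that expected for the partner in the shared exon bases. Reads in those bases alone were not counted. The part of partner reads counted on the wrong strand in these correlations was not tested. Dlx6os2 and Dlx6 had r = 0.79 and rho = 0.83 (adjusted p = 0.00324, 0.69 and 0.79). Pmepa1os, 181 bases from the start of Pmepa1, a gene whose product restrains TGF-beta signalling, had r = 0.70 and rho = 0.67 (adjusted p = 0.0193, 0.58 and 0.74), although Pmepa1 stayed between 257 and 311 CPM. Zfhx2os, which spans the homeobox gene Zfhx2, had r = 0.69 and rho = 0.69 (adjusted p = 0.0299, 0.52 and 0.74). The other 6 were Zbtb11os1 (r = 0.68), Ptgs2os2 (0.64), Rbm3os (0.63), Zmiz1os1 (0.58), Il1bos (0.58) and Cebpzos (0.58), with adjusted p-values of up to 0.0984. By rho and the same permutation test, Ptgs2os2 (0.69, adjusted p = 0.0299) and Rbm3os (0.63, 0.0679) passed. Il1bos (0.45, adjusted p = 0.291) and Cebpzos (0.51, 0.207) did not. Between Il1bos and Il1b, r was 0.20 in the WT and 0.89 in the APP-NL-G-F libraries, a difference that was not tested.

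Of the 6 pairs of highest r, 4 moved with the inhibitory neuron markers. The mean log2 level of that list correlated with Kcnd3os and Kcnd3 as given above, with Dlx6os2 (r = 0.86, rho = 0.81) and Dlx6 (0.93, 0.94), with Grin1os (0.77, 0.71) and Grin1 (0.92, 0.93), and with Zfhx2os (0.74, 0.75) and Zfhx2 (0.84, 0.86). Adjusted permutation p-values were at most 0.0476 and the correlations within the groups were 0.80 to 0.94 for these 8 genes. With the 10 neuron markers, none of these 8 genes had a positive correlation that passed. The part of neuronal RNA in these correlations was not tested. Junos and Jun correlated negatively with the list (r = -0.77 and -0.76, adjusted p = 0.0258 and 0.0331).

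**Figure D5:**
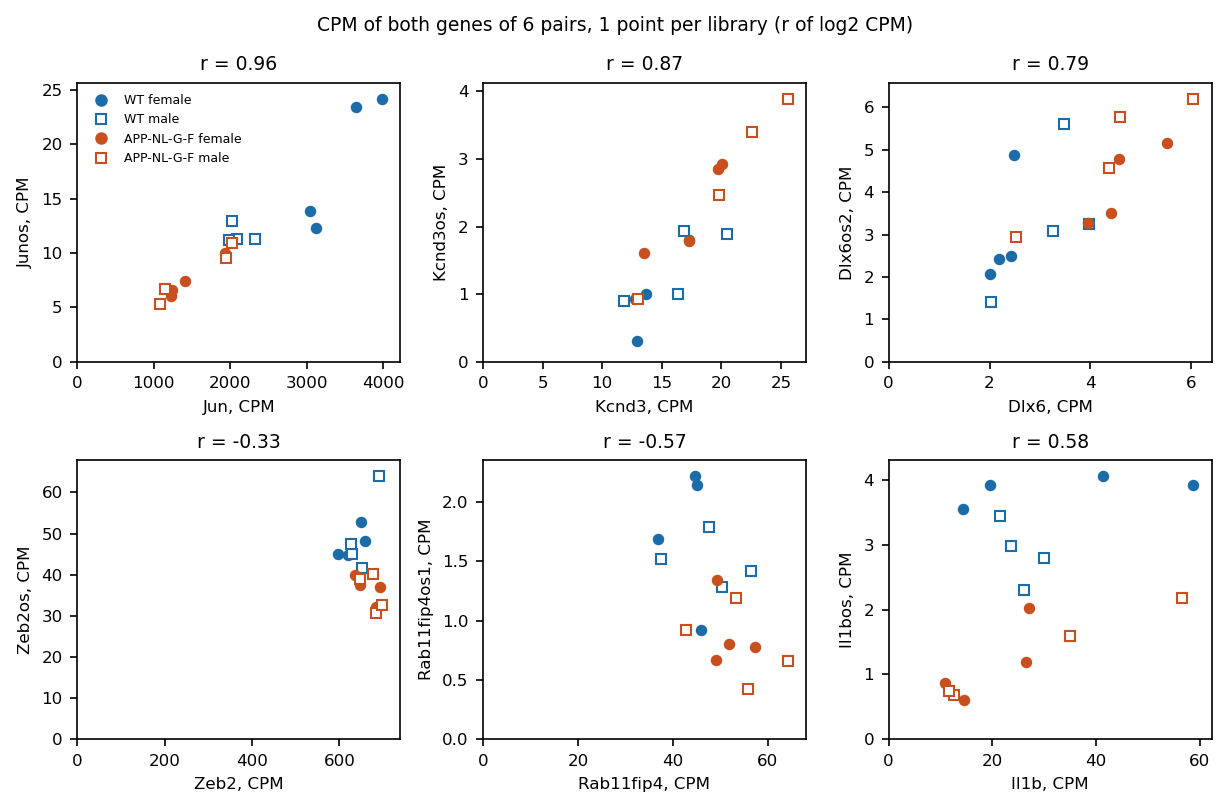
CPM of the opposite-strand gene (y axis) against CPM of its partner (x axis) in each of the 16 libraries for 6 pairs, coloured by genotype with filled circles for females and open squares for males, and r of log2 CPM above each panel. Junos rises with Jun along a single line that holds both genotypes, while the APP-NL-G-F points of Zeb2os and Il1bos lie below the WT points at the same partner level.

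At the other end, no pair had a negative correlation that passed. The lowest was Rab11fip4os1 with Rab11fip4 (r = -0.57, adjusted p = 0.107, and rho = -0.61, adjusted p = 0.0764), which was -0.53 without the 2 farthest libraries and -0.27 within the groups. Next came Plxna4os1 (r = -0.40, rho = -0.26, adjusted p = 0.362), Epb41l4aos (r = -0.37, rho = -0.36, adjusted p = 0.415) and Zeb2os (r = -0.33, rho = -0.40, adjusted p = 0.51). For Zeb2os, r was 0.69 in the WT and -0.64 in the APP-NL-G-F libraries, with 0.18 within the 4 groups, and the difference between the genotypes was not tested.

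The ratio of the 2 genes of a pair, taken as log2 CPM of the opposite-strand gene minus log2 CPM of the partner, asks whether a member moved apart from its partner. It differed between the genotypes in 13 of the 70 pairs (exact permutation of genotype within sex over 4900 arrangements, two-sided, adjusted p below 0.1 over the 81 pairs, of which 19.8% passed), 12 lower and 1 higher in APP-NL-G-F, and 18 had an unadjusted p below 0.05. Zeb2os and Lrrc75aos2 had the smallest adjusted p, 0.0165, which comes from the smallest p the 4900 arrangements can give: the ratio went from -3.73 ± 0.16 in WT to -4.22 ± 0.19 in APP-NL-G-F for Zeb2os and from -1.61 ± 0.39 to -2.60 ± 0.38 for Lrrc75aos2 (SD, n = 8, exact permutation). The ratio fell from -3.14 ± 0.45 to -4.74 ± 0.84 for Frmd8os, from -2.95 ± 0.64 to -4.03 ± 0.41 for Il1bos and from -4.71 ± 0.46 to -5.77 ± 0.53 for Rab11fip4os1, each with an adjusted p of 0.0331 by the exact permutation test. Kcnd3os was the higher one, from -3.599 ± 0.55 to -2.93 ± 0.32 (exact permutation, adjusted p = 0.0397).

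Of the 12 called members, 9 were among these 13 pairs. The exceptions were Junos, Runx2os1 and Atcayos, whose ratios had adjusted p-values of 0.92, 0.477 and 0.395. The other 4 pairs were Zeb2os, Bach2os, Epb41l4aos and Arhgap27os3, whose members were not called. Calls and ratios use the same member counts in the same libraries, so the 9 in both are not separate evidence of a difference. Over all 70 pairs, 42 had the same sign of the log2 fold change in both genes.

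Reads of the partner that are counted on the wrong strand could add to a member where exons of both coincide, and which strand column was counted is not given in the sources used here. The CPM of the whole member was therefore set against the CPM expected for the partner in the shared exon bases. That expectation is the partner's CPM per kb times the shared length. The member's share of it was 3.23% for Junos, 3.597% for Grin1os, 14.1% for Atcayos, 20.8% for Rsf1os2, 37.5% for Frmd8os, 41.7% for Zfhx2os, 67.7% for Rbm3os, 76.9% for Phtf1os and 85.7% for Cebpzos, and above 100% for the other named members that share exon bases. Reads in the shared bases alone were not counted, so a short overlap raises the share. Il1bos, above 100%, shares 95 bases with Il1b, and its ratio to Il1b per kb of exons was 0.0597. Pmepa1os, Ptgs2os2, Rab11fip4os1 and Plxna4os1 share none. Of 736 genes whose exons lie wholly inside exons of the other strand, 485 had at least 1 count and 93 passed the count threshold, 1 of them a member, Abhd11os. The part of wrong-strand reads in the members was not tested.

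For 3 members the partner had too few counts for a pair: Ccdc142os, with 3 to 16 counts while Ccdc142 had 0 to 2, Tnfsf13os, with 3 to 17 while Tnfsf13 had 1 to 8, and Tomm6os, with 2 to 20 while Tomm6 had 0 to 4. None of the 3 members was called. Similarly named genes were few: of 11 tested genes ending in "as", "ot" or "it" after another symbol, 5 were called higher and 1 lower, namely 1 of 5 "as", 3 of 4 "ot" and 2 of 2 "it" genes. Of their pairs with both genes tested, 1 of 5, 1 of 2 and 0 of 2 were correlated. Hras with Hr and Vipas39 with Vip, 2 of the 5 "as" pairs, share only their spelling.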

How the data were processed

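The authors isolated olfactory bulb microglia with CD11b beads, made libraries from total RNA with a stranded SMART-Seq kit, used STAR for alignment to a GRCm39 genome to which human App was added, and deposited raw counts per gene, 1 column per library. The strand column counted is not given in the sources used here. Columns of no sample numbered 0.

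Genes reaching 5 counts in 8 or more libraries were tested in R 4.3.3 with edgeR 4.0.16 (TMM, glmQLFit, glmQLFTest, genotype and sex as terms). A second fit with 4 groups gave the within-sex contrasts and the interaction. SE is the absolute log2 fold change over the square root of F. FDR is Benjamini-Hochberg over all 18227 genes. Pair correlations and ratios used log2 CPM with a prior count of 2, in Python 3.11.15 with numpy 2.4.6, scipy 1.17.1 and pandas 2.3.3. The scripts were tested on simulated data. Positions and exon lengths came from gencode M39, a later release than the authors used, which matched 96.8% of the listed genes.

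The alternatives were RLE and upper quartile scaling, DESeq2 1.42.0, limma 3.58.1 (voom), other filters and thresholds, a replicate block, library numbers 1 to 8 against 9 to 16 as a term, no sex term, other prior counts, subsets of libraries and leaving out each library. The members, gene lists, tests and marker lists were chosen with earlier results of these data known. Named with values are pairs with a called gene, the 6 highest and 4 lowest correlations, the 5 highest members per kb, the 5 smallest ratio p-values, interaction calls and the 2 members on either side of the count threshold. Others are named where a count of 5 or fewer or a list of calls asks for it, chosen after their values were seen. Library totals were 9052932 to 18117286 counts, and the SE of the called members ran from 0.18 to 0.49.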

Additional observations from a re-analysis of the deposited data

Results flagged for a closer look

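In the 46 genes of the named pairs, 184 groups of 4 libraries were looked at for a library far from the other 3, by the gap to its neighbour over the range of the group. In 13 groups a library stood apart past Dixon's 95% critical value, where chance gives about 1 in 20. In APP-NL-G-F male replicate 3, Grin1 was at 94.8 CPM against 156.8 to 161.9 in the other 3, Zfhx2 at 30.9 against 58.16 to 60.85, and Runx2 at 7.30 against 13.3 to 13.8. In APP-NL-G-F female replicate 3, Atcay was at 28.8 CPM against 22.6 to 23.5 and Bloc1s6 at 15.9 against 17.5 to 17.8, and in APP-NL-G-F female replicate 1 Rbm3 was at 33.0 against 37.95 to 38.2. In WT female replicate 1, Lrrc75a was at 13.01 CPM against 14.68 to 14.95 and Rab11fip4 at 36.8 against 44.6 to 46.0. In WT female replicate 2, Epb41l4a was at 1.27 CPM against 2.38 to 2.64 and Wdr83os at 11.2 against 12.8 to 13.1, and in WT female replicate 4 Plxna4os1 was at 12.05 against 9.99 to 10.2. In WT male replicate 1, Junos was at 12.9 CPM against 11.2 to 11.3, and in WT male replicate 3 Frmd8 was at 29.7 against 39.8 to 41.5. Of the 13 values, 3 belong to opposite-strand genes and 10 to partners. Without APP-NL-G-F male replicate 3, 13 members and 6 partners were called for genotype.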

How the results depend on the processing

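The 12 genotype calls among the opposite-strand genes stayed at 12 with RLE or upper quartile scaling, DESeq2, no sex term and a term for library numbers 1 to 8 against 9 to 16, were 13 with limma voom, 9 at 10 counts, 17 with the FDR alone and 7 at an FDR below 0.05, and ran from 8 (without replicate 1 of the WT females or of the APP-NL-G-F males) to 13 when a library was left out. No called gene changed sign under any alternative run. Frmd8os, Il1bos, Junos, Kcnd3os, Lrrc75aos2, Phtf1os, Rab11fip4os1, Jun and Dlx6 were called in all 27. The 3 called partners became 10 with the FDR alone and 2 to 6 when a library was left out. Without a filter on counts, 5 members were called in males (0 with it) and 2 in the interaction (0 with it), and the cause was not tested. Leaving out a library gave 4 to 10 calls in females, 0 to 3 in males and 0 in the interaction. The 12 correlated pairs were 1 in the WT libraries alone, 5 in the APP-NL-G-F libraries alone, 2 in libraries numbered 9 to 16, 9 in those numbered 1 to 8 and 4 without the 2 libraries farthest from the partner's median, all settings with fewer libraries, and 7 to 14 when 1 library was left out. They were 9 with RLE scaling, 9 within the 4 groups and 11 by Spearman's rho. The 13 ratio calls ran from 11 to 16 when a library was left out.

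The replicate numbers did not pair the samples: same-numbered libraries of a sex correlated at -0.33 to 0.13 in their deviations. With a replicate block, 12 members and 4 partners were called, 8 members in females, 0 in males and 0 in the interaction, 11 pairs were correlated and 12 ratios differed. The median member had a mean of 16.3 counts per library, and the median SE of the members was 0.23 on the log2 scale. Ptgs2os2 could be tested under 18 of the 27 alternatives, and Atcayos and Bloc1s6os under 26.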
